A study of Mus musculus with 22 samples.

Results

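The genes described here are the ligands and receptors of 4 axon guidance families in the mouse nervous system: semaphorins with plexins and neuropilins, ephrins with Eph receptors, Slits with Robos, and netrins with Dcc and the Unc5 proteins. They were chosen by symbol among genes with a coding transcript, which gave 72 genes of the 55385 genes with an estimate. Of these, 37 encode ligands and 34 encode receptors. The symbol pattern also caught Unc5cl, which encodes an Unc5c-like protein that is neither, and it was kept as a member. By family there were 20 ligands and 11 receptors of the semaphorin-plexin family, 8 and 14 of the ephrin-Eph family, 3 and 4 of the Slit-Robo family, and 6 and 5 of the netrin family.

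Axon guidance molecules were first described as cues that attract or repel growing axons. Semaphorins bind plexins, secreted class 3 semaphorins doing so mostly through neuropilin co-receptors, and ephrins bind Eph receptor tyrosine kinases on a neighbouring cell. Slits signal through Robos, while netrins signal through Dcc and the Unc5 proteins. In the adult brain many of these genes remain expressed and are known for roles in synapse formation, plasticity and contacts between neurons and glia.

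The data were mRNA libraries made with RiboTag, in which Cre recombinase switches on a hemagglutinin-tagged copy of the ribosomal protein Rpl22 in 1 cell type, so that tagged ribosomes and their mRNA can be pulled from whole tissue. All mice were 6 weeks old and carried Rpl22 Fl/+ with a Cre transgene: Rbp4-Cre for dentate gyrus granule cells (hippocampus, 2 females and 1 male) and for layer V neurons (cortex, 2 females and 1 male), Gabra6-Cre for cerebellar granule cells (cerebellum, 1 female and 2 males), Dlx6a-Cre for inhibitory interneurons (hippocampus, each library pooled from 2 mice of both sexes), Aldh1-cre as labelled for astrocytes (cortex, 1 female and 2 males), and Tmem119-cre for microglia (cortex, 1 female and 2 males). The study's methods give the drivers of the glial libraries as tamoxifen-inducible lines, so those mice also received tamoxifen. There were 3 replicates of each of the 6 cell types. Every library analysed here came from tagged mice, so each cell type was compared with the other cell types only. Neither the labels nor the methods say how each replicate's tissue was divided, and p-values measure the spread between these libraries. In tissue pulldowns, fewer cells of a type and less RNA per cell cannot be told apart.

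The 18 libraries held 38270477 to 71440915 estimated counts. Of 24 marker genes of the labelled cell types, 21 were above every other library in their own type. The exceptions were Rbp4, Etv1 and Bcl11b in the layer V libraries, where Fezf2 alone among 4 layer V markers was highest, so the layer V label rests on fewer defining markers than the others. Summed oligodendrocyte markers reached 2612 to 2795 TPM in the interneuron libraries and 768 to 983 in the astrocyte libraries. In the microglia libraries they reached 450 to 536 TPM, summed endothelial markers 146 to 218 and summed mural and fibroblast markers 161 to 449. Endothelial markers summed to at most 34.4 TPM elsewhere. Mural and fibroblast markers summed to 117.9 to 171.3 TPM in the dentate gyrus libraries, which overlapped the microglia libraries, and to at most 67.35 in the remaining types. Most of the dentate gyrus sum was Dcn, with a mean of 126.4 TPM. There Rgs5, Pdgfrb and Col1a1 had means of 8.33, 0.929 and 0.454 TPM, against 63.4, 8.59 and 169.4 in microglia. One astrocyte library, replicate 1, held 3655 TPM of choroid plexus markers, against 5.58 and 12.25 in the other two, and the same markers summed to 88.4 to 221 TPM in the dentate gyrus libraries and 164 to 274 in the interneuron libraries. Some members that these values could bear on are marked below. The part of these values was not tested for any member, marked or unmarked. Interneurons and microglia were sequenced in the second batch only, and the other 4 types were taken from the first. In the 18 libraries, cell type and batch therefore cannot be told apart when interneurons or microglia are compared with those 4 types.

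In 3 semaphorin genes, members of the classes anchored in the membrane, the estimated shares of annotated transcription starts differed between cell types. Starts were grouped for these genes only, so this is no count over the members. Sema4d encodes a transmembrane semaphorin that binds plexin B1 and lies on the minus strand of chromosome 13 (51685529 to 51793747, GRCm38). In microglia 71.5% of its TPM belonged to the transcript Sema4d-202, with 72.9%, 71.2% and 70.5% in the replicates. In the other cell types the mean share of this transcript was at most 0.469%, and no single library went above 1.41%. Sema4d-202 starts at 51734763, which is 58984 bases inside the outermost annotated start at 51793747. The outermost start group, which includes Sema4d-201, held 16.8% in microglia and 32.6% (layer V neurons) to 53.2% (cerebellar granule cells) elsewhere. The microglial libraries therefore did not overlap any other library in the share of the inner start.

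Sema4a, another class 4 semaphorin (chromosome 3, 88435959 to 88461182, minus strand), showed such a split in astrocytes. The outermost start, that of Sema4a-214 at 88461182, held 62.5%, 70.3% and 68.8% of the gene's TPM in the 3 astrocyte libraries. It held 0.00277% on average in layer V neurons, 1.87% in microglia and 6.27% in interneurons. In dentate gyrus granule cells the mean was 8.78%, nearly all of it from 1 library at 26.3%. The start group 2081 bases further in, which includes Sema4a-213, held 76.9% in layer V neurons, 61.5% in interneurons, 51.7% in dentate gyrus granule cells and 11.5% in astrocytes. Shares are not given here for cerebellar granule cells, nor for microglia in the inner group. Of the Sema4a TPM, 92.6% and 59.2% was assigned to non-coding transcripts in those types, against 11.4% in astrocytes. Sema6d, a class 6 semaphorin that binds plexin A1, spans chromosome 2 from 124089969 to 124667770 on the plus strand. Its inner starts, 520137 bases inside the outermost, held 88.2% of the TPM in astrocytes and 81.5% in microglia. In the neuronal types they held between 27.2% (layer V neurons) and 55.2% (cerebellar granule cells).

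**Figure D1:**
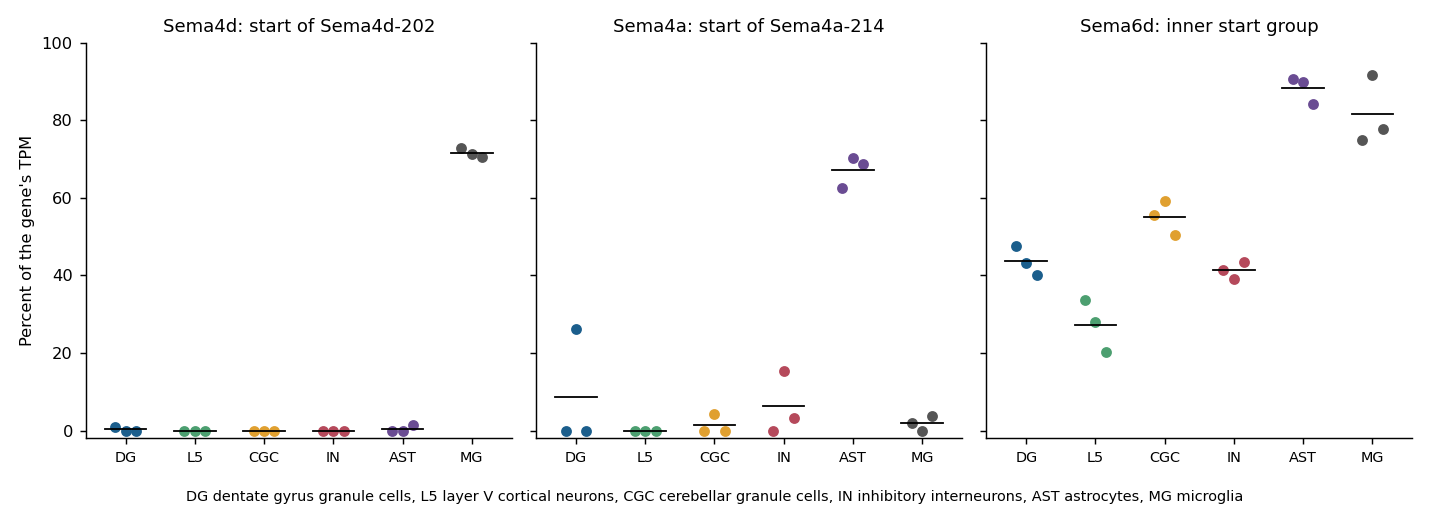
Percent of each gene's TPM that came from transcripts of 1 start group (y axis), for the 6 cell types (x axis); points are the 3 replicates and bars their mean. The microglial libraries (70.5% to 72.9%) stand alone for Sema4d-202, the astrocyte libraries (62.5% to 70.3%) for Sema4a-214, and both glial types lie above every neuronal library for the inner starts of Sema6d.

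The 200 bases before each of these starts are shown because the transcript shares bear on them. They are RefSeq sequence of GRCm38.p6 in the direction of transcription, in lower case, and capitals mark matches to 3 short motifs on either strand. The first motif is the GC box, GGGCGG, bound by Sp1-type factors. The second is the TATA box of core promoters, searched for as TATAAA. The last is the core of the site of PU.1, a myeloid factor, searched for as GAGGAA. The windows are chr13:51793748-51793947 (minus strand) for the outer start of Sema4d, chr13:51734764-51734963 (minus) for its microglial start, chr3:88461183-88461382 (minus) for the astrocyte start of Sema4a, chr3:88459102-88459301 (minus) for its other start, chr2:124089769-124089968 (plus) for the outer start of Sema6d and chr2:124609906-124610105 (plus) for the first of its inner starts.
Sema4d-201: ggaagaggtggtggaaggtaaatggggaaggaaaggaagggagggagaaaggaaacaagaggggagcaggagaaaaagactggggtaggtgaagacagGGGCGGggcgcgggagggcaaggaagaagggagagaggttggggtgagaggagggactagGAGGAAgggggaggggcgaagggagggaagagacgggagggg
Sema4d-202: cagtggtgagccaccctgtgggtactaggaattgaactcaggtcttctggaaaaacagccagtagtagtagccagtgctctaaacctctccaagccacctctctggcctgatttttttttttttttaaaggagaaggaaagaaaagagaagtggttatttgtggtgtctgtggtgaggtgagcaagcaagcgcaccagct
Sema4a-214: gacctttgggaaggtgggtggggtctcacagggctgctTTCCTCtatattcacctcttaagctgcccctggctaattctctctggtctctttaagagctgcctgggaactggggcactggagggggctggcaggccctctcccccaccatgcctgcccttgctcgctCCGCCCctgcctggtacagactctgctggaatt
Sema4a-213: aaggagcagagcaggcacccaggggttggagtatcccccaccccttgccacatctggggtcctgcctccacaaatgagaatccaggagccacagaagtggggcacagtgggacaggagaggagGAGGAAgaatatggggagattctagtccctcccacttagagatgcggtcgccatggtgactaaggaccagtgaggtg
Sema6d-208: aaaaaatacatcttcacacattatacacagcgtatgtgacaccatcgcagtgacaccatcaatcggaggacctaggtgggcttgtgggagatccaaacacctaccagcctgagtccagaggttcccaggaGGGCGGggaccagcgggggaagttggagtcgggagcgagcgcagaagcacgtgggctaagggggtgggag
Sema6d-209: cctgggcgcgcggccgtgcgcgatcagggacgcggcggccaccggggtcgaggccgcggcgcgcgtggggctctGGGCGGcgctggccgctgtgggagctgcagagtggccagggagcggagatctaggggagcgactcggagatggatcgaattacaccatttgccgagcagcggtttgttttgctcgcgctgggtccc

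No annotated exon overlapped any of these windows. The microglial window of Sema4d was the poorest in CG dinucleotides, with 1, and held none of the 3 motifs, while its outer window held 5 CG dinucleotides, 1 GC box and 1 PU.1 core. The astrocyte window of Sema4a held 2 CG dinucleotides, 1 GC box and 1 PU.1 core, and the window of its other start held 2 CG dinucleotides and 1 PU.1 core. The inner window of Sema6d held 27 CG dinucleotides and the outer window 9, each with 1 GC box. Over 32817 annotated promoters in windows of the same length, 31% held the GC box, 9.96% the TATA box and 19% the PU.1 core, with a median of 5 CG dinucleotides. Such matches are common and are given as a description. The transcript shares rest on few bases: Sema4d-202 has 257 bases that Sema4d-201 lacks, Sema4a-214 has 36 that Sema4a-213 lacks, and Sema6d-206, an inner transcript, has 714 that Sema6d-208 lacks.

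Summed over members, both sides were highest in dentate gyrus granule cells. The ligands came to 1091 ± 58.9 TPM there (SD, n = 3), against 764 ± 23.6 in interneurons, 607 ± 13.5 in layer V neurons, 616 ± 14.7 in cerebellar granule cells, 446 ± 23.2 in astrocytes and 393 ± 11.1 in microglia. The receptors came to 1155 ± 58.1 TPM in dentate gyrus granule cells and to 397 ± 6.16 in cerebellar granule cells, the lowest of the 6. The remaining receptor totals were 646 ± 13.6 in layer V neurons, 639 ± 31.1 in interneurons, 600 ± 5.06 in microglia and 549 ± 35.5 in astrocytes. A single gene carried much of the receptor total in glia: Plxnb2 made up 52.1% in microglia and Plxnb1 26.5% in astrocytes. Eph receptors were the largest receptor family in dentate gyrus granule cells, with 623 TPM, whereas plexins and neuropilins came to 472 TPM of the receptor total in microglia.

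**Figure D2:**
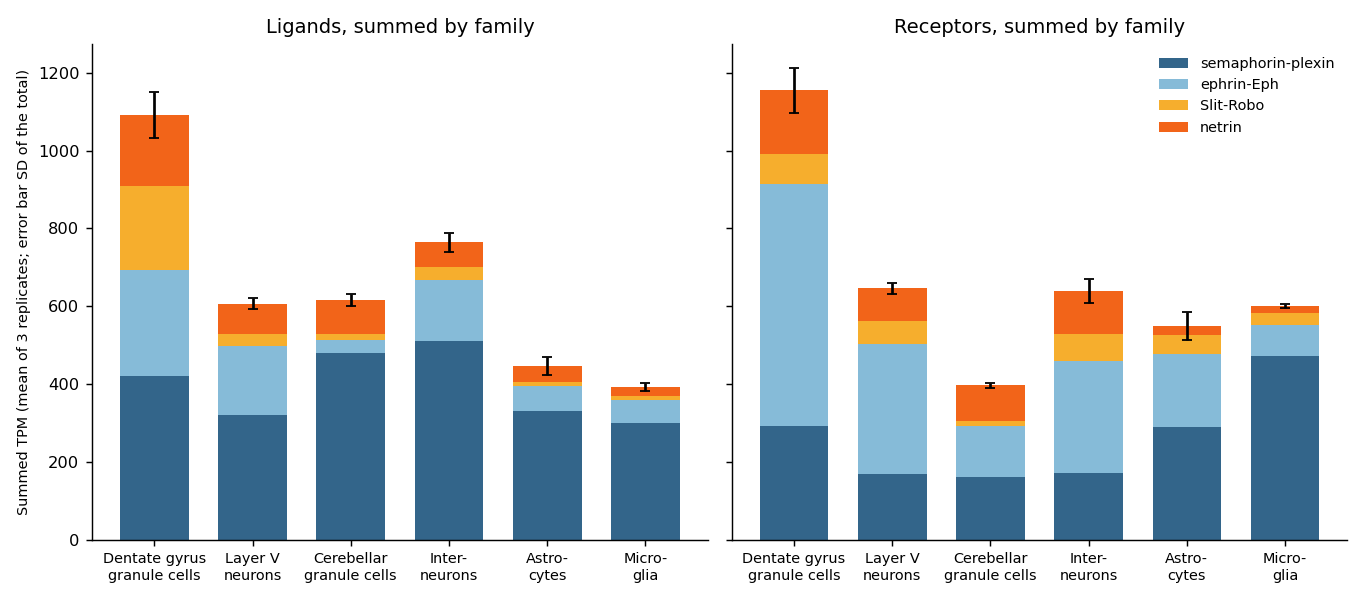
Summed TPM of ligands (left) and receptors (right) by family in the 6 cell types; bars are means of 3 replicates and the error bar is the SD of the total. Dentate gyrus granule cells have the highest totals on both sides (1091 and 1155 TPM), and the receptor bar of microglia is mostly semaphorin-plexin (472 of 600 TPM).

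Of the 72 members, 71 passed the filter on low counts. Epha1, an EphA receptor, did not, and its mean stayed at or below 0.0984 TPM in every cell type. In the edgeR quasi-likelihood test, a member was called when its Benjamini-Hochberg adjusted p over all 20524 genes was at most 0.05 and its change was at least 2-fold. All 71 tested members differed among the 6 cell types, as did 88.6% of all genes tested. In 60 of the 71 members the 3 libraries of 1 cell type lay above every other library, against 69% of all genes. The cell type on top was most often the dentate gyrus granule cells, with 17 members (8.53% of all genes), followed by cerebellar granule cells with 13 (15.6%), astrocytes and microglia with 9 each (10.4% and 18.9%), interneurons with 8 (10.2%) and layer V neurons with 4 (5.31%). At the other end, 25 members had all 3 cerebellar granule cell libraries below every other library (18.1% of all genes), and 12 had the microglia libraries there (15.4%).

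**Figure D3:**
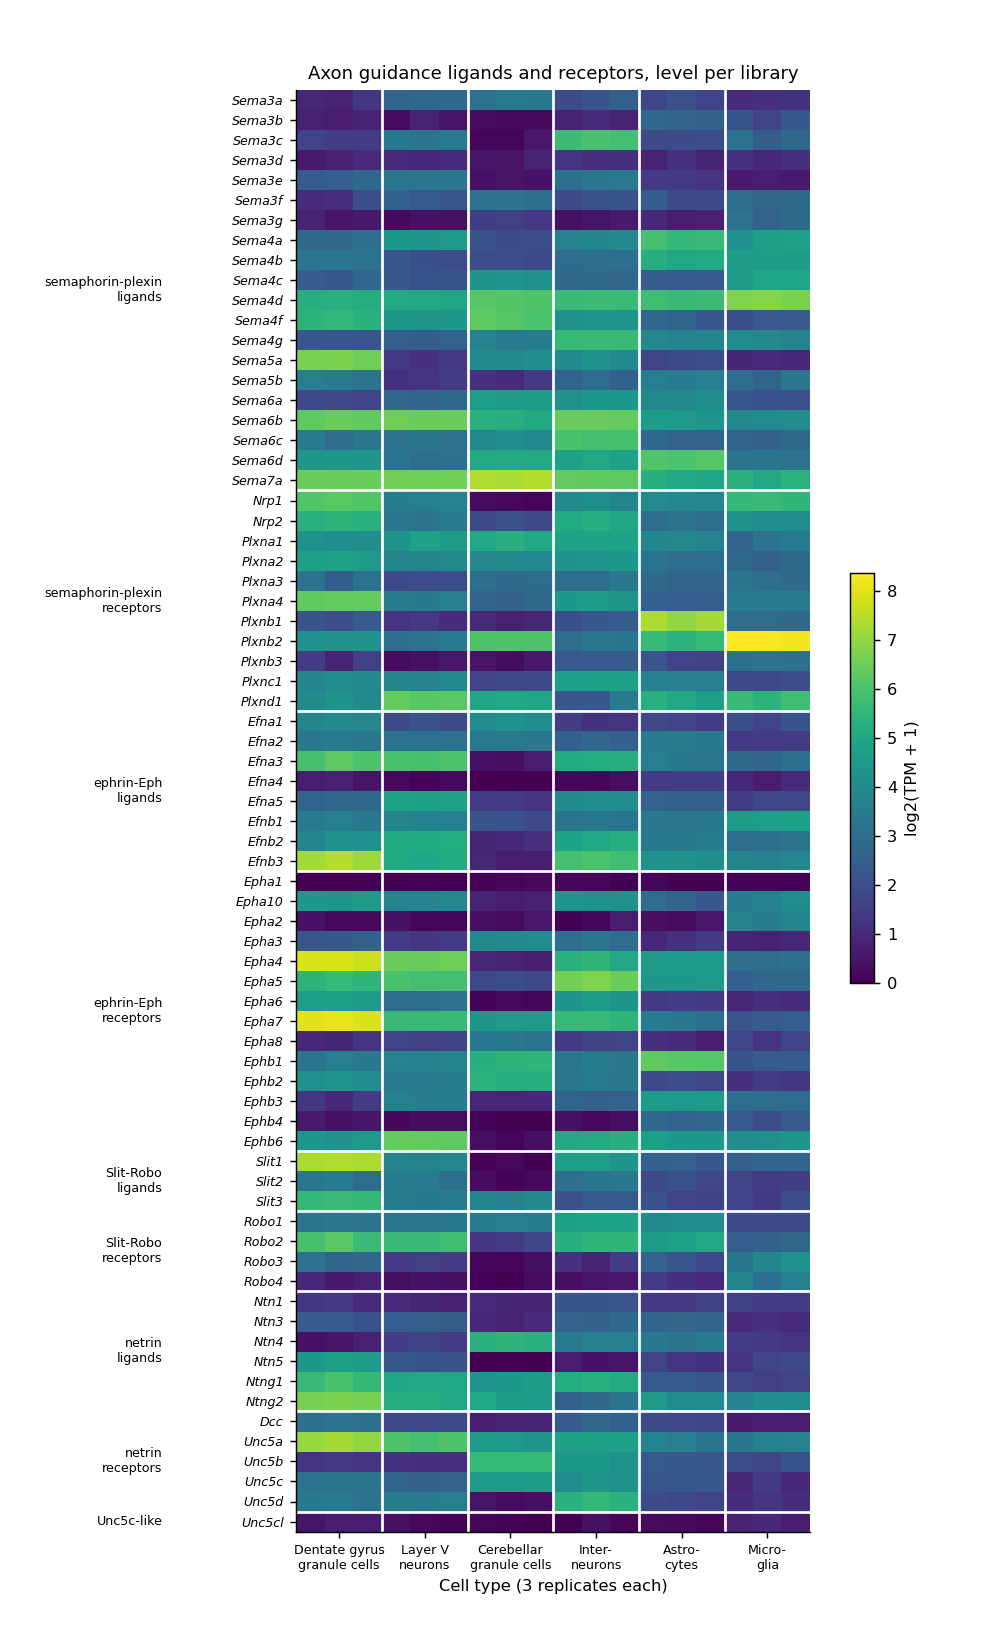
Level of each of the 72 members (rows, by family and side) in the 18 libraries (columns, 3 replicates of each of the 6 cell types), coloured by log2(TPM + 1). Slit1, Slit3, Epha4 and Epha7 are highest in dentate gyrus granule cells. The column of cerebellar granule cells holds 28 members under 1 TPM, a count without the share over all genes beside it.

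Each cell type was next compared with the mean of the other 5 on the log2 scale. Since that mean includes cerebellar granule cells, a member near 0 there has a larger difference in every other type, and for the leading members the difference from the next highest type is therefore given too. Efna4 and Ntn5 had 0 counts in all 3 cerebellar granule cell libraries, so no fitted fold is given for them and only the comparison with the next type is used. Both are among the calls counted.

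In dentate gyrus granule cells 29 of 71 members were higher (40.8%), against 14.1% of all genes, and 14 were lower (19.7%), against 14% of all genes. The higher members were 14 ligands and 15 receptors, and the median log2 difference was 0.49 over members and -0.01 over all genes. Slit1, a secreted ligand of the Robos (chromosome 19, 41600257 to 41743665), stood out. Its levels were 156, 164 and 157 TPM in dentate gyrus granule cells, 24.2, 24.4 and 18.99 in interneurons and 13.0, 12.3 and 13.5 in layer V neurons. In astrocytes they were 4.89, 5.12 and 3.84 TPM, in microglia 4.80, 5.55 and 5.64, and in cerebellar granule cells 0.0566, 0.128 and 0.00762. No dentate gyrus library overlapped another type. The log2 difference from the other types was 5.69 (SE 0.09, adjusted p = 4.47e-19) and from interneurons 2.90 (SE 0.13, adjusted p = 1.40e-12). Slit3 was also highest there, at 46.2, 50.7 and 45.9 TPM, and Slit2 was not, at 8.72, 9.61 and 6.74 TPM against 10.3, 9.64 and 7.45 in layer V neurons.

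The other leading ligands in dentate gyrus granule cells came from each of the remaining families. Sema5a, a transmembrane semaphorin with thrombospondin repeats, was at 101, 103 and 89.6 TPM there, at 14.99, 18.5 and 14.7 in interneurons, at 14.7, 14.6 and 16.1 in cerebellar granule cells and at no more than 2.90 in any other library. Its log2 difference from interneurons was 2.70 (SE 0.12, adjusted p = 2.10e-12). Ntn5, a small secreted netrin, was at 20.9, 25.2 and 23.5 TPM, next to 3.87, 3.505 and 3.42 in layer V neurons, a log2 difference of 2.46 (SE 0.20, adjusted p = 1.86e-08). Efnb3, a transmembrane ephrin, was the most abundant ephrin in any cell type, at 144, 167 and 139 TPM, ahead of 56.7, 63.1 and 54.6 in interneurons. Ntng2, a membrane-anchored netrin-G that does not bind Dcc, was at 97.9, 104 and 97.9 TPM, against 37.6, 35.5 and 32.1 in layer V neurons. None of these dentate gyrus libraries overlapped another cell type. Of the Ntng2 level, 53.5% in dentate gyrus granule cells and 61.95% in layer V neurons was assigned to non-coding transcripts.

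Among receptors, EphA genes set the dentate gyrus granule cells apart, with a class total of 573 TPM against 230 in interneurons and 219.5 in layer V neurons. Epha7 was at 253, 268 and 236 TPM, next to Epha4 at 233, 233 and 210. For Epha4 the next type was layer V neurons, at 87.5, 85.2 and 91.0 TPM, and the log2 difference between them was 1.01 (SE 0.11, adjusted p = 1.87e-07). That difference covers every transcript of the gene, and 60.8% of the Epha4 level in dentate gyrus granule cells was assigned to non-coding transcripts, against 20.1% in layer V neurons. Over coding transcripts alone Epha4 was at 107, 75.2 and 82.5 TPM in dentate gyrus granule cells and 58.6, 67.9 and 84.2 in layer V neurons, and the libraries overlapped. For Epha7 it was also layer V neurons, at 48.7, 49.6 and 48.4 TPM, with a log2 difference of 2.04 (SE 0.08, adjusted p = 1.23e-12). Unc5a, a netrin receptor linked to repulsion, was at 134, 148 and 128 TPM, with layer V neurons next at 64.9, 58.9 and 65.5. Robo2, a Slit receptor, was at 59.9, 74.1 and 50.5 TPM against 49.5, 48.2 and 52.8 in layer V neurons, and that pair overlapped (adjusted p = 0.93). Plxna4 and Nrp1, which form receptor complexes for class 3 semaphorins, were also highest in these cells, with means of 80.8 and 69.0 TPM. The class 3 ligands themselves summed to 11.7 TPM there, the lowest of the 6 types.

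**Figure D4:**
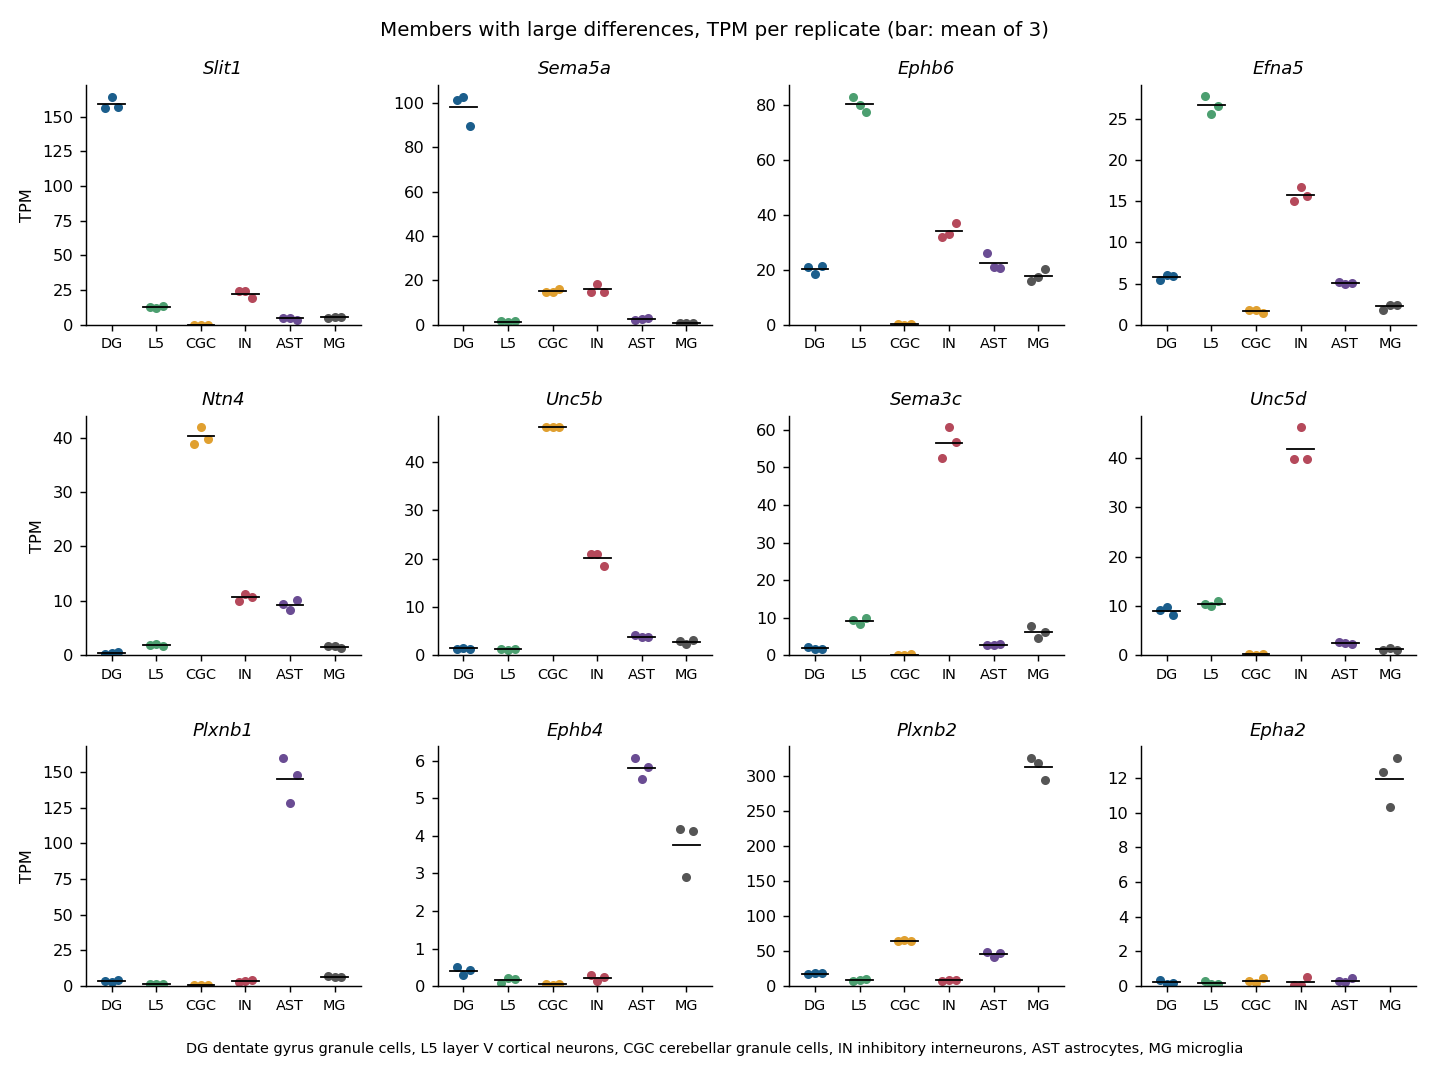
TPM per replicate (points) and mean (bar) of 12 members in the 6 cell types, each panel from 0. In each panel the 3 libraries of 1 cell type lie above all others, from Slit1 and Sema5a in dentate gyrus granule cells to Plxnb2 and Epha2 in microglia.

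In layer V neurons 23 of 71 members were higher (32.4%), against 17.3% of all genes, and 18 were lower (25.4%), against 16.2% of all genes. Ephrins led on the ligand side. Efna5, a GPI-anchored ephrin known for topographic mapping, was at 27.7, 25.6 and 26.6 TPM in layer V neurons and at 15.02, 16.7 and 15.6 in interneurons, and no other library passed 6.04. The log2 difference from the other types was 2.77 (SE 0.06, adjusted p = 3.23e-17). Efna3 was at 61.1, 59.8 and 64.3 TPM, but dentate gyrus granule cells at 59.9, 77.1 and 65.3 overlapped them (adjusted p = 0.243). Slit2, called with a log2 difference of 2.85 (SE 0.09, adjusted p = 8.36e-15), also overlapped dentate gyrus granule cells and interneurons in TPM, the latter at 7.38, 8.58 and 9.34, although by counts it was higher in layer V neurons than in interneurons (log2 difference 0.57, SE 0.12, adjusted p = 0.000359). In cerebellar granule cells it was near 0, with at most 0.196 TPM.

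The leading layer V receptor was Ephb6, an Eph receptor whose kinase domain is inactive. It was at 83.0, 80.2 and 77.4 TPM, ahead of 32.0, 33.2 and 37.0 in interneurons, with a log2 difference of 1.45 (SE 0.13, adjusted p = 1.80e-08) from that next type. The remaining libraries lay between 15.9 and 26.1 TPM, except cerebellar granule cells at 0.229, 0.117 and 0.273. Plxnd1, the plexin that binds Sema3e directly, was at 80.5, 72.4 and 73.7 TPM. Its ligand Sema3e, at 8.65, 8.80 and 8.83 TPM, overlapped interneurons (7.37, 8.80 and 9.61). By counts Sema3e was higher in layer V neurons than in interneurons (log2 difference 0.36, SE 0.09, adjusted p = 0.00138). Plxnd1 was followed by microglia at 49.9, 40.8 and 54.8 TPM, in the libraries that also held the endothelial markers, whose part in that level was not tested. Of the Plxnd1 level, 66.4% in layer V neurons and 77.8% in microglia was assigned to non-coding transcripts. Lower in layer V neurons were the plexin B genes, Plxnb2 by a log2 difference of -2.72, Plxnb3 by -2.69 and Plxnb1 by -2.05.

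Cerebellar granule cells had the fewest members at 1 TPM or more, 44 of 72, against 62 to 66 in the other 5 types. The share of all genes at 1 TPM or more was not computed, so this count has no background beside it. In cerebellar granule cells 18 of 71 tested members were higher (25.4%), against 15.7% of all genes, and 37 were lower (52.1%), against 33.2% of all genes. The median log2 difference was -1.37 over members, -1.15 without Efna4 and Ntn5, and -0.27 over all genes. The lower members included both neuropilins, all 3 ephrin-B genes, and Slit1 and Slit2. Nrp1 was at 0.205, 0.145 and 0.118 TPM, against 10.7 or more in every other library, and its log2 difference was -7.31 (SE 0.15, adjusted p = 6.68e-18). The ephrin-B total was 4.83 TPM, against 36.3 to 176 in the other types. Epha4 was at 0.852, 0.796 and 0.631 TPM, against 6.55 or more in every other library.

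The members that were high in cerebellar granule cells included netrin, Eph and semaphorin genes. Ntn4, a secreted netrin known from basement membranes, was at 38.9, 41.9 and 39.8 TPM, followed by 10.1, 11.3 and 10.8 in interneurons and 9.39, 8.32 and 10.2 in astrocytes, with a log2 difference of 2.03 (SE 0.12, adjusted p = 5.18e-11) from interneurons. Unc5b was at 47.2 TPM in each of the 3 libraries, with interneurons next at 21.0, 20.9 and 18.4, a log2 difference of 1.32 (SE 0.08, adjusted p = 1.03e-10). Both are parts of the netrin family, and Dcc, its attractive receptor, was at 0.620, 0.728 and 0.811 TPM. Ephb2 was at 40.8, 37.2 and 37.8 TPM, against 17.9, 19.3 and 16.2 in dentate gyrus granule cells. Epha3 was at 14.8, 15.1 and 15.8 TPM, above interneurons at 7.34, 8.64 and 6.90. Sema7a, the only GPI-anchored semaphorin and a plexin C1 ligand, was the most abundant semaphorin in any cell type, at 162, 157 and 166 TPM. It was no more than 94.6 TPM in any other library, while Plxnc1 had a mean of 2.59 TPM in cerebellar granule cells, its lowest mean, next to 2.72 in microglia.

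In inhibitory interneurons 29 of 71 members were higher (40.8%), against 14.8% of all genes, and 11 were lower (15.5%), against 11.3% of all genes. With only the libraries of the second sequencing batch, the counts were 29 and 10. Sema3c, a secreted semaphorin that binds neuropilins, was at 52.4, 60.7 and 56.8 TPM and made up 75.9% of the class 3 total in these cells. No other library passed 9.87 TPM, and the log2 difference from layer V neurons was 2.55 (SE 0.17, adjusted p = 4.72e-10). Sema6c, a transmembrane semaphorin, was at 61.5, 57.9 and 59.2 TPM, with no other library above 16.1. Sema4g was at 47.2, 48.9 and 49.2 TPM, with no other library above 15.2. These 3 ligands each separated the interneuron libraries from the rest.

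Interneuron receptors were led by Unc5d, an Unc5 receptor that also binds Flrt proteins. It was at 39.7, 46.2 and 39.8 TPM, next to 10.4, 10.02 and 10.9 in layer V neurons, a log2 difference of 1.65 (SE 0.12, adjusted p = 2.47e-09). Flrt2, one of the Flrt genes, was higher in interneurons by 3.1 on the log2 scale. Epha6 was at 19.0, 23.1 and 19.0 TPM, below dentate gyrus granule cells at 24.02, 26.1 and 23.6. Epha5 was highest in interneurons, at 95.4, 106 and 88.1 TPM, with 60.8, 57.6 and 57.8 in layer V neurons. Robo1 was at 25.7, 27.3 and 26.5 TPM, with astrocytes next at 15.1, 15.4 and 15.7. Lower in interneurons were Plxnd1, by a log2 difference of -2.64, and Ntng2, by -2.55. All 3 interneuron libraries held the oligodendrocyte markers given above, and their part in these levels was not tested. Plxnb3, known from oligodendrocytes, had 4.24 TPM on average in interneurons and 7.52 in microglia over every transcript. Over coding transcripts alone the means were 2.41 TPM in interneurons and 1.74 in microglia, so its highest type depends on which transcripts are counted, and the part of the oligodendrocyte markers in both was not tested.

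Astrocytes had 20 of 71 members higher (28.2%), against 24.4% of all genes, a share near the background, and 14 lower (19.7%), against 10.4% of all genes. Without astrocyte replicate 1, the library with the choroid plexus markers, 18 were higher and 15 lower. Plxnb1, the Sema4d receptor (chromosome 9, 109095389 to 109119917), was at 160, 128 and 148 TPM in astrocytes, 7.01, 6.59 and 6.38 in microglia and no more than 4.40 in any neuronal library. Its log2 difference was 6.13 from the other types (SE 0.08, adjusted p = 6.00e-21) and 4.62 from microglia (SE 0.14, adjusted p = 1.70e-15). Of the 5 EphB receptors, 3 were highest in astrocytes, while Ephb6 was highest in layer V neurons and Ephb2 was lower in astrocytes than in the other types (log2 difference -1.73, SE 0.07, adjusted p = 9.97e-14). Ephb1 was at 79.4, 71.2 and 69.5 TPM, ahead of cerebellar granule cells at 36.9, 42.3 and 43.3. Ephb3 was at 23.2, 21.8 and 23.0 TPM, with layer V neurons next at 11.8, 10.3 and 10.4. Ephb4, best known from veins, was at 6.08, 5.50 and 5.85 TPM in astrocytes and at 4.20, 2.90 and 4.13 in microglia, and at most 0.516 in neurons. The astrocyte libraries held 25.7 to 34.4 TPM of the endothelial markers and the microglia libraries 146 to 218, and their part in the level of Ephb4 was not tested.

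On the ligand side astrocytes were highest for 8 members. Sema4a was at 56.4, 46.5 and 49.4 TPM, with microglia at 17.8, 25.3 and 26.5 and layer V neurons at 21.1, 19.7 and 21.7. Most of its astrocyte TPM was assigned to the outer start shown above. Sema6d was at 66.7, 62.3 and 70.8 TPM, with cerebellar granule cells next at 33.5, 33.9 and 33.6. Most of the astrocyte TPM of Sema6d was assigned to its inner starts. Sema4b was at 37.9, 31.1 and 33.4 TPM, with microglia next at 23.0, 23.1 and 23.7. The rarer Sema3b, a secreted semaphorin, was at 6.12, 5.66 and 4.99 TPM next to 3.53, 2.31 and 3.79 in microglia. Efna4 was at 1.74, 1.94 and 1.93 TPM next to 0.969, 0.570 and 1.04 in microglia, a log2 difference of 1.19 (SE 0.29, adjusted p = 0.00182). Sema3b and Efna4 were above every other library, whereas Ntn3 and Efna2, which also had their highest mean in astrocytes, overlapped other types. Lower in astrocytes were Ntng1 (log2 difference -2.13), Sema4f (-1.85) and Epha7 (-1.83).

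In microglia 17 of 71 members were higher (23.9%), against 29% of all genes, and 31 were lower (43.7%), against 20.8% of all genes. With only the libraries of the second batch, the counts were 17 and 31. Plxnb2, a plexin B receptor for class 4 semaphorins (chromosome 15, 89155549 to 89180788), was the most abundant member in any cell type. It was at 326, 318 and 294 TPM in microglia, 64.7, 66.0 and 64.0 in cerebellar granule cells and 48.0, 41.6 and 47.4 in astrocytes, and no more than 18 in the other libraries. Its log2 difference from cerebellar granule cells was 2.05 (SE 0.07, adjusted p = 1.32e-14). Of the TPM of Plxnb2 in microglia, 28.7% was assigned to a short transcript annotated as processed, Plxnb2-205, and 42% and 23.6% to a pair of full-length coding transcripts. Sema4d was at 106, 112 and 101 TPM in microglia, with cerebellar granule cells next at 71.4, 68.0 and 66.1. The log2 difference between these types was 1.28 (SE 0.07, adjusted p = 4.12e-12). Most of the microglial TPM of Sema4d was assigned to the inner start shown above. The Sema4d receptor Plxnb1 was highest in astrocytes.

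The remaining high microglial members were less abundant. Epha2, an EphA receptor known from epithelia, was at 12.4, 10.3 and 13.2 TPM, and at most 0.544 in any other library. Its log2 difference from astrocytes was 5.45 (SE 0.30, adjusted p = 1.33e-11). Robo4, the Robo of endothelial cells, was at 12.8, 7.25 and 11.7 TPM, with astrocytes next at 1.74, 1.17 and 1.03, a log2 difference of 2.83 (SE 0.30, adjusted p = 1.33e-07). The endothelial markers Cldn5 (53.8 to 86.95 TPM), Flt1 (39.2 to 62.0), Pecam1 (35.4 to 45.9) and Cdh5 (17.05 to 23.5) were all highest in these same libraries, and their part in the levels of Robo4 and Epha2 was not tested. Robo3 was at 8.47, 13.2 and 17.6 TPM, with 1 dentate gyrus library at 7.64 close below. Most of its microglial level (87.6%) was on non-coding transcripts, against 42.9% in dentate gyrus granule cells, and over coding transcripts alone the order turned, with means of 1.62 TPM in microglia and 3.63 in dentate gyrus granule cells. Unc5cl was at 0.771, 0.949 and 0.559 TPM and overlapped the dentate gyrus libraries at 0.377, 0.559 and 0.577, so its call (log2 difference 3.86, SE 0.29, adjusted p = 6.95e-10) concerned a gene under 1 TPM in every library.

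Members that were lower in microglia came from all 4 families. Unc5c was at 0.866, 1.70 and 0.915 TPM, against 3.62 or more in every other library, with a log2 difference of -3.48 (SE 0.08, adjusted p = 1.47e-17). Ephb1, Ephb2, Robo1, Dcc and Plxna1 were each below every other library too. The Unc5 total was 16.1 TPM in microglia, against 155 in dentate gyrus granule cells. The Eph receptor total was 79.2 TPM, against 131 or more in the other types.

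Between the 2 glial types and the 4 neuronal types, 21 of 71 members were higher in glia (29.6%), against 30.3% of all genes, and 23 were lower (32.4%), against 15.9% of all genes. Only the glial mice received tamoxifen, so cell class and treatment cannot be told apart in this comparison. Both glial types came from cortex, as did only layer V neurons among the neuronal types. Among the members with the largest differences, Plxnb1 (log2 difference 4.20, SE 0.08, adjusted p = 5.57e-19) was mostly astrocytic and Epha2 (4.29, SE 0.22, adjusted p = 2.03e-12) microglial, whereas Ephb4 (5.16, SE 0.15, adjusted p = 3.25e-16) was above every neuronal library in both. Over the alternatives the sizes moved more than these errors, from 1.61 to 4.64 for Epha2, 2.24 to 5.70 for Ephb4 and 3.42 to 6.85 for Plxnb1. The lowest value of Epha2 and the highest of Plxnb1 came from the first batch alone, which holds no microglia, and the lowest of Ephb4 from log2(TPM + 1). Of those lower in glia, Ntng1, the netrin-G that binds the synaptic protein Lrrc4c, was at 4.12, 4.12 and 3.58 TPM in astrocytes and 2.44, 2.03 and 2.25 in microglia, against 19.3 to 61.5 over the 12 neuronal libraries, with a log2 difference of -3.27 (SE 0.07, adjusted p = 3.79e-18). Epha7 was at 9.79, 9 and 7.03 TPM in astrocytes and 3.58, 4.33 and 4.66 in microglia, below all neuronal libraries (20.3 and more), with a log2 difference of -2.93 (SE 0.06, adjusted p = 2.97e-18). Ephb2 was also below all neuronal libraries in both glial types, by -2.74 (SE 0.06, adjusted p = 2.20e-18). Sema5a was lower on average, by -3.00 (SE 0.09, adjusted p = 5.99e-16), but its layer V libraries, at 1.63, 1.27 and 1.60 TPM, overlapped the glial range of 0.840 to 2.90.

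**Figure D5:**
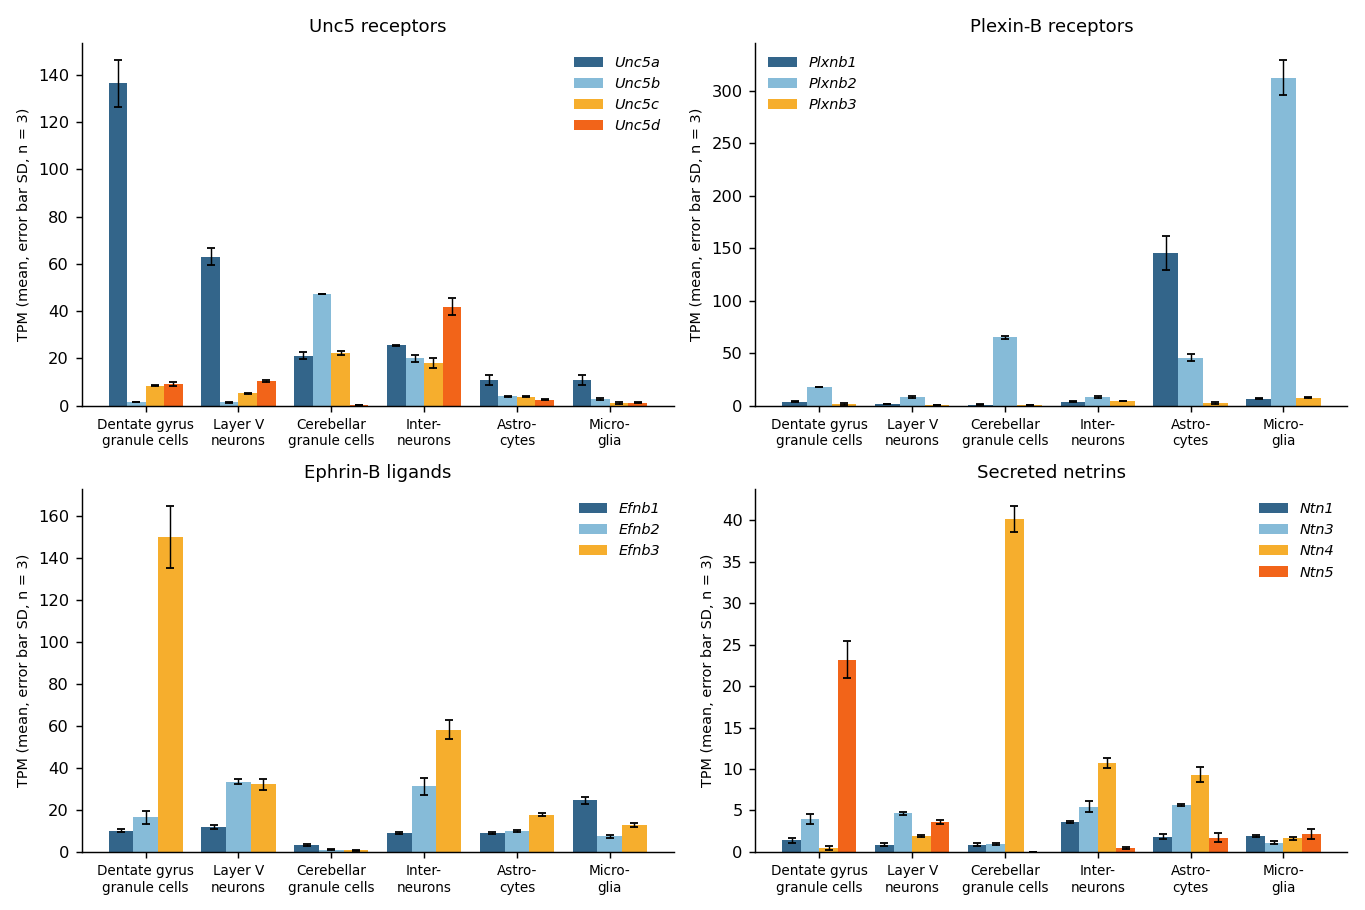
Mean TPM (bars) with SD over 3 replicates (error bars) of the Unc5 receptors, plexin B receptors, ephrin-B ligands and secreted netrins in the 6 cell types. Members of 1 family peak in different cell types: Unc5a in dentate gyrus granule cells, Unc5b and Unc5c in cerebellar granule cells, Unc5d in interneurons, Plxnb1 in astrocytes and Plxnb2 in microglia.

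Within several families, paralogs peaked in different cell types. Of the 4 Unc5 receptors, Unc5a led in dentate gyrus granule cells (87.8% of the Unc5 total), layer V neurons (78.9%), astrocytes (51.15%) and microglia (67.2%), Unc5b in cerebellar granule cells (51.9%) and Unc5d in interneurons (39.75%). Of the plexin B genes, Plxnb1 peaked in astrocytes and Plxnb2 in microglia, while Plxnb3 had its highest mean in microglia over every transcript and in interneurons over coding transcripts. Of the 72 members, Robo3 and Plxnb3 were the 2 whose highest cell type changed when coding transcripts alone were counted. Of the ephrin-B genes, Efnb3 peaked in dentate gyrus granule cells, Efnb2 in layer V neurons, at 32.7, 32.7 and 34.8 TPM, and Efnb1 in microglia, at 22.8, 24.4 and 26.1 TPM. Of the secreted netrins, Ntn5 peaked in dentate gyrus granule cells, Ntn4 in cerebellar granule cells, Ntn1 in interneurons and Ntn3 in astrocytes. Netrin-1 itself, the best known of them, was low throughout, with a highest mean of 3.54 TPM. For most members the top type was above the next, but Robo2, Efna3, Epha10, Sema3a and Sema3d had a top pair with an adjusted p above the 0.05 threshold (0.0558 to 0.98), taken here without the minimum fold. The same held for 82 of 355 neighbouring pairs in the order of levels.

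Co-receptors and effectors of the 4 families were taken as a list of 50 other genes, all tested. In dentate gyrus granule cells 13 were higher and 10 lower, against 14.1% and 14% of all genes, and in layer V neurons 12 and 7, against 17.3% and 16.2%. In cerebellar granule cells 16 were higher and 13 lower, against 15.7% and 33.2% of all genes, and in interneurons 11 and 3, against 14.8% and 11.3%. In astrocytes 14 were higher and 14 lower, against 24.4% and 10.4% of all genes, and in microglia 6 and 28, against 29% and 20.8%. The chimaerins divided between the granule cells, with Chn1, a GTPase-activating protein below EphA4, higher in dentate gyrus granule cells by 3.2 and Chn2 higher in cerebellar granule cells by 5.9. Met, a plexin B partner, was higher in layer V neurons by 3.9 and lower in cerebellar granule cells by -8.1. Its low cerebellar level enters the layer V difference. Values for the listed genes are log2 differences from the mean of the other 5 types, given without the next highest type. In astrocytes the Rac exchange factor Dock1 (5.4), the plexin effector Mical1 (4.8), and Rgma (4.0) and Draxin (3.6), secreted or anchored ligands of Neo1 and Dcc, were higher. In microglia Fes, a kinase in semaphorin signalling (7.8), and Vav2, an exchange factor below Eph receptors (4.5), were higher, and the adhesion molecules Chl1 (-4.0) and Nrcam (-3.3) and the Slit-Robo GTPase-activating protein Srgap3 (-3.1) were lower. Against neurons, 8 of the 50 were higher in glia and 19 lower, where 30.3% and 15.9% of all genes were.

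Transcript shares were less settled for Epha4. The coding transcript Epha4-201 held 57.7% to 84.4% of the gene's TPM in the layer V libraries, but its share ran from 1.51% to 70.9% over the 3 astrocyte libraries, so the cell types overlapped. A transcript annotated for nonsense-mediated decay, Epha4-205, took most of the rest, and the 2 differ by few bases in length (6328 and 6315). The 4 replicates sequenced in both batches gave nearly the same member levels, with a median absolute log2 ratio of 0.033 to 0.057 over members at 1 TPM or more. The largest single ratio was 0.73, for Slit2 in astrocytes.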

How the data were processed

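Libraries were prepared by the authors from anti-HA pulldowns with a stranded mRNA kit. Reads were trimmed with cutadapt 3.5 and quantified by the authors with kallisto 0.46.2 against GENCODE M24 transcripts, and the deposited tables hold estimated counts and TPM per transcript. Both were summed here per gene, the estimated counts then rounded. Where a replicate had a library in each batch, the batch 1 library was used, which left 18 replicates of 22 libraries.

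Genes were filtered with filterByExpr (minimum count 10) and tested in 1 fit over 6 cell types with edgeR 4.0.16 (TMM, quasi-likelihood F test, R 4.3.3). P-values were adjusted by Benjamini-Hochberg over 20524 genes. Genes were called at adjusted p values up to 0.05 with an absolute log2 fold change of 1 or more. Each cell type was set against the mean of the other 5, and glia against neurons. The study's own differential test (sleuth) was not used here. Levels are TPM, as deposited, with SD over 3 replicates. TPM depends on the estimated transcript lengths, so a gene with different transcripts in 2 cell types can be ordered differently by TPM and by counts. Scripts were tested on simulated data.

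Values per library were given for the 4 called members with the largest difference in each cell type and each direction between glia and neurons, and for the most abundant ligand and receptor of each family. Other members, such as Sema4g, Robo1 and Epha5, were named by counts, classes, transcripts or values per library after their values were seen. The members and lists were chosen with earlier results of these data known. Alternatives were DESeq2 1.42.0, limma 3.58.1 on log2 TPM, other normalisations and filters, coding transcripts only, batch choices, a replicate block and leaving out each replicate. Same-numbered replicates of different cell types did not deviate together (0 of 15 pairs of types with every correlation over 0.1), so they were not treated as paired. Coordinates are GRCm38 (GENCODE M21 annotation) and upstream sequence is from RefSeq GRCm38.p6. A second library of layer V replicate 1, labelled male, had 2.12 TPM of Xist and 0.034 of Ddx3y, against its label, and entered only the batch alternatives.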

Additional observations from a re-analysis of the deposited data

How the results depend on the processing

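None of the fold changes the naming rule chose changed direction. Over 13 alternative settings and 18 left-out replicates, 493 counts and totals stayed close to their main value. Close meant a total within its SD, or a count of calls within a set ratio. Further off were 12 totals, and counts of calls were clearly larger in 7 cases and smaller in 5. With no minimum fold, the members called rose to 39 higher in layer V neurons, 28 in cerebellar granule cells, 33 in astrocytes and 28 in microglia, and to 25 lower in dentate gyrus granule cells, 26 in astrocytes and 20 in interneurons. With limma on log2(TPM + 1), 15 were higher in layer V neurons, 10 higher in astrocytes and 6 lower in interneurons, and with a pseudocount of 0.1, 12 were higher in astrocytes. Ntn5 changed sign in astrocytes, microglia and glia on the log2(TPM + 1) scale without a call, as did Unc5cl in cerebellar granule cells over coding transcripts and, with batch 1 libraries only, Sema3c in dentate gyrus granule cells, Epha2 in cerebellar granule cells, and Dcc, Epha4 and Epha5 in glia. With batch 1 libraries only, which hold no microglia or interneurons, 15 were lower in glia. Counting coding transcripts only, ligand totals were 990.1 TPM in dentate gyrus granule cells, 545.2 in layer V neurons, 571.9 in cerebellar granule cells, 683.7 in interneurons, 400.1 in astrocytes and 344.6 in microglia, and receptor totals 925.6, 545.9, 341.2, 569.3, 474.8 and 406.8 in that order. On these receptor totals microglia lay below astrocytes and layer V neurons below interneurons, the reverse of the order over every transcript. Removing the minimum fold can only add calls, which holds for all 7 larger counts. The cause of the other changes was not tested. Members near 0 counts are limited by depth.

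With the replicate number as a block, 29, 23, 18, 29, 20, 17 and 21 members were called higher in dentate gyrus granule cells, layer V neurons, cerebellar granule cells, interneurons, astrocytes, microglia and glia, and 15, 18, 37, 11, 14, 31 and 24 lower, and 71 differed among the types. Without each replicate in turn, the members called higher ranged over 29 to 29, 22 to 26, 18 to 19, 29 to 30, 17 to 20, 16 to 17 and 20 to 22 in the same order, and lower over 12 to 16, 18 to 19, 35 to 37, 11 to 12, 12 to 15, 31 to 34 and 23 to 25.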
